A study of Mus musculus with 2 samples.

Results

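Multiciliated airway cells were examined in 2 droplet single-cell RNA libraries of sorted mouse lung epithelium, 1 from *Pclaf* WT mice and 1 from *Pclaf* knock-out (KO) mice. The cells were selected on measured values. A barcode was kept where it held over 200 and below 5000 genes and where mitochondrial (mt-) UMIs stayed below 20%, and it was taken as a ciliated cell with at least 4 of 9 cilia genes detected (*Foxj1*, *Dnah5*, *Dnah9*, *Dnah12*, *Rsph1*, *Cfap54*, *Dynlrb2*, *Pifo* and *Meig1*, called rule genes here), with *Sftpc* under 5% of its UMIs, and with 0 UMIs of *Ptprc*, *Pecam1* and *Muc5b*. A UMI is the molecular tag that marks 1 captured transcript. The rule took 1216 of 45824 kept cells, of which 123 came from the *Pclaf* WT library and 1093 from the *Pclaf* KO library.

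Both groups were mice of 8 to 10 weeks that received bleomycin, which injures the alveolar epithelium, at 1.35 U/kg in the labels, and both were taken 1 week later. The *Pclaf* KO mice carry a germline loss of *Pclaf*, so every cell of the body lacks it, and their controls carry the intact gene. *Pclaf* encodes a partner of the replication clamp PCNA that is made in dividing cells. Cells were sorted as CD31-/CD45-/Epcam+, and the number of mice behind each library is not given in the sources used here. With 1 library per genotype no difference could be tested between genotypes, and every interval below is a 95% interval that covers counting error only.

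Multiciliated cells line the conducting airways and move mucus with many motile cilia each. The fate is set up by GMNC and MCIDAS, the deuterosome then makes centrioles in large numbers, and FOXJ1 with the RFX factors turns on the genes of the ciliary shaft, the axoneme. That shaft holds outer microtubule doublets around a central pair, with outer and inner dynein arms as motors, radial spokes and the nexin-dynein regulatory complex as their control, and intraflagellar transport as the route by which parts reach the tip.

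The libraries differed in ways that touch every comparison. The WT library held 30669 barcodes and 98171818 UMIs with a median of 2127 UMIs per kept cell, against 17172 barcodes, 111267567 UMIs and a median of 5957 in the KO library. Only 734 of 30187 kept WT cells had an *Epcam* UMI without *Ptprc* or *Pecam1*, against 7027 of 15637 kept KO cells. The WT library thus held fewer cells of the sorted kind among more barcodes. The libraries shared 163 barcodes, of which 13 were KO ciliated cells and 0 were WT ciliated cells.

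The study's methods name male mice, yet both libraries held cells with *Xist*, the RNA that coats the inactive X chromosome in females. Of the WT ciliated cells, 39 (31.7%) had *Xist* and no Y-linked transcript (*Ddx3y*, *Eif2s3y*, *Uty* or *Kdm5d*), and 44 (35.8%) had a Y-linked transcript and no *Xist*. Among KO ciliated cells these numbers were 554 (50.7%) and 268 (24.5%). Both kinds of transcript were found in 2 WT cells and 39 KO cells. Lists that turned direction beyond counting error with this make-up are given for each set of cells apart, and so are some other lists and genes.

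The ciliated share of the library depended on what it was counted against. Ciliated cells were 0.407% of all kept WT cells (95% Clopper-Pearson interval 0.339 to 0.486) and 6.99% of all kept KO cells (6.59 to 7.40). Among cells with *Epcam* and without *Ptprc* and *Pecam1*, the shares were 11.9% in WT (87 of 734, 9.60 to 14.4) and 12.4% in KO (870 of 7027, 11.6 to 13.2), and the intervals overlapped. The WT share was lower and the gap wider with every cell thinned to 1000 UMIs before the rule, at 6.70% against 11.4%, and with the limits of 200 and 5000 set on UMIs, at 6.98% against 11.2%. The gap in the share of all kept cells lay beside the number of kept cells outside this set, and it cannot be told apart from differences in the sort.

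The conditions of the rule took cells unevenly. In the WT library 205 cells had at least 4 rule genes, and 81 of them were left out for a UMI of *Ptprc* (45 cells), *Pecam1* (53 cells) or *Muc5b* (4 cells). In the KO library 1218 cells had at least 4, and 89 were left out for *Sftpc* and 41 for the other 3 genes. Cells just outside carried cilia RNA too. Those left out only for *Ptprc*, *Pecam1* or *Muc5b* were deeper than the members, with a median of 8291 UMIs over 79 WT cells and of 10237 over 36 KO cells. Those with 3 rule genes were shallower. The 12 WT cells with 3 rule genes had a median of 1092 UMIs and 242 counts per 1000000 UMIs (CPM) of *Tmem212*, a ciliated cell gene outside the rule, against 734 CPM in the 13 WT cells with 4 rule genes. In the KO library, *Tmem212* stood at 120 CPM in the 30 cells with 3 rule genes and at 451 CPM in the 37 cells with 4, and *Scgb1a1* made up 244048 CPM of the first set and 81335 CPM of the second. *Sftpc* made up 4% to 5% of UMIs in 0 WT and 4 KO cells just inside that limit, and 5% to 6% in 0 WT and 8 KO cells just outside it. CPM here is the summed UMIs of a gene in a set of cells per 1000000 UMIs of that set.

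Most members carried many more rule genes than the rule asked for. All 9 were detected in 50 of 123 WT cells (40.7%) and 632 of 1093 KO cells (57.8%), with a median depth of 5606 UMIs per cell in WT (549 to 13237) and 7140 in KO (669 to 26751). At 2000 UMIs per cell, reached by thinning every cell and leaving out shallower ones, ciliated cells held a median of 1319 genes in WT (111 cells) and 1274 in KO (1050 cells). AT2-gated cells, which carried *Sftpc* at 5% of UMIs or more, held 973 and 901 genes at that depth, and club-gated cells held 646 and 524. Club-gated cells were those with *Scgb1a1* at 1% of UMIs or more, *Cyp2f2*, and *Scgb3a2* or *Cldn10*. Other Epcam-positive cells were closer to the ciliated cells, with 1151 genes in WT and 1134 in KO. By these medians ciliated cells showed more kinds of transcript at equal depth in both libraries. The AT2 and club gates each ask for an abundant transcript, which takes up part of the 2000 UMIs. The doublet caller Scrublet marked 15 WT ciliated cells (12.2%) and 43 KO ciliated cells (3.93%), beside 7.76% of all kept WT cells and 2.70% of all kept KO cells.

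A further 264 cilia genes were not used by the rule. They made up a median of 7.27% of a cell's UMIs in WT ciliated cells (lowest 1.01%, highest 9.25%). In KO ciliated cells the median was 7.40% (1.09% to 12.0%). The same genes made up 0.650% and 0.634% in AT2-gated cells and 0.707% and 0.714% in club-gated cells. Both gates asked for under 4 rule genes, so this contrast follows in part from that choice. It is not an independent check of the label. The cells with only 4 rule genes were already at 5.24% in WT and 5.19% in KO. The 4 markers named for the label, *Foxj1*, *Dnah5*, *Rsph1* and *Pifo*, are all rule genes, so their levels describe the choice and do not test it.

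**Figure D1:**
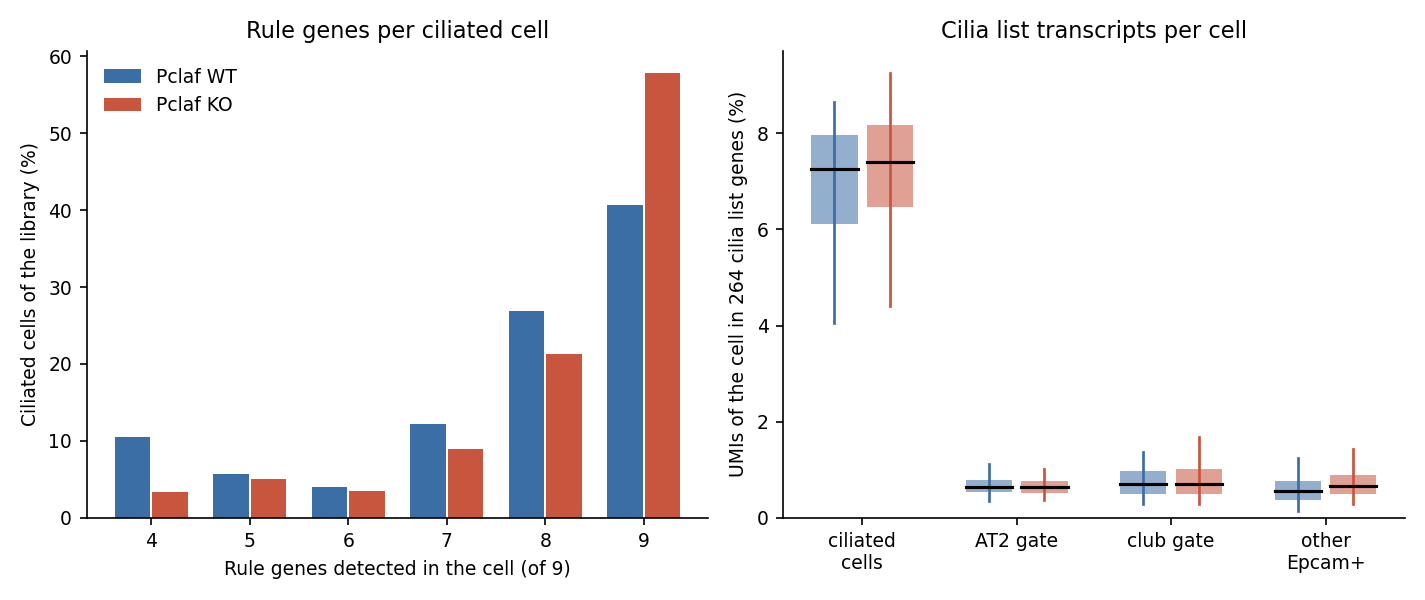
Left, percent of the ciliated cells of each library (y axis) with 4 to 9 rule genes detected (x axis). Right, percent of a cell's UMIs in 264 cilia genes outside the rule, with the median (black line), quartiles (box) and 5th to 95th percentiles (line), for ciliated cells, AT2-gated cells, club-gated cells and other Epcam-positive cells. The ciliated medians of 7.27% (WT) and 7.40% (KO) stand far above the other cells, all of which have medians under 1%. Those other cells were gated to hold under 4 rule genes.

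*Pclaf* itself was near the limit of detection in ciliated cells of both genotypes. It had 2 UMIs in 2 of 123 WT ciliated cells (2.87 CPM, 0.348 to 10.4) and 17 UMIs in 17 of 1093 KO ciliated cells (2.07 CPM, 1.21 to 3.32), so the log2 ratio, taken throughout as KO over WT, was -0.47 with an interval from -2.55 to 2.69. Over all kept cells the level was 39.3 CPM in WT against 5.19 CPM in KO, over sets whose cell types differ. No difference in *Pclaf* was detectable at the depth of the ciliated cells, and whether these 3' reads fall in the deleted part of the gene was not tested. *Mki67*, a marker of dividing cells, had a UMI in 0 of 123 WT ciliated cells, where a floor of 3 counts allows a share of cells with a UMI of up to 2.44% and the Clopper-Pearson limit is 2.95%, and in 6 of 1093 KO ciliated cells (0.549%, 0.202 to 1.19), at the full depth of each cell. The cell cycle list as a whole summed to 250 and 314 CPM, of which *Hmgb2*, a chromatin protein, made up 118 and 166 CPM.

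*Foxj1*, the transcription factor that drives the motile cilia programme (chr11:116330704-116335399, minus strand, GRCm38), stood at 526 CPM in WT (473 to 582) and 502 CPM in KO (487 to 518). In other epithelial cells of the same libraries it did not pass 3.80 CPM. Those cells were gated to hold under 4 rule genes, so this low level describes that choice. *Dnah5*, a heavy chain motor of the outer dynein arm (chr15:28203752-28472052, plus strand), stood at 906 CPM in WT (837 to 980) and 838 CPM in KO (819 to 858). These transcripts were close in both genotypes, with log2 ratios of -0.07 and -0.11. *Rsph1*, a head protein of the radial spoke (chr17:31255019-31277383, minus strand), was at 468 CPM in WT (419 to 522) and 617 CPM in KO (600 to 634), a log2 ratio of 0.40 (0.24 to 0.56). *Pifo*, a protein of the ciliary base and shaft (chr3:105996957-106014646, minus strand), was at 315 CPM in WT (274 to 359) and 373 CPM in KO (359 to 386). The other dynein genes of the rule were level too, with *Dnah9*, an outer arm heavy chain, at 639 and 673 CPM, *Dnah12*, an inner arm heavy chain, at 1360 and 1416 CPM, and *Dynlrb2*, a light chain, at 1340 and 1378 CPM. *Cfap54* of the central pair stood at 783 and 808 CPM. *Rsph1*, *Pifo* and *Meig1* (log2 ratio 0.32) were the rule genes with the largest ratios, and all 9 rule genes lay within 2-fold between the libraries, which is a description only, since cells of both libraries were chosen on these genes.

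Shares of cells with a transcript were compared at equal depth. At 2000 UMIs per cell, *Foxj1* was detected in 64.0% of WT and 61.3% of KO ciliated cells, against 0% and 0.23% of AT2-gated cells. *Dynlrb2*, a dynein light chain, was detected in 92.8% and 89.6%, an order opposite to its CPM and within the counting interval of the WT share (86.3 to 96.8). *Rsph1* was detected in 57.7% of WT and 68.1% of KO ciliated cells, and *Pifo* in 38.7% and 48.8%, the order that their CPM had.

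Outside the rule genes, the transcripts that set ciliated cells apart most were ranked by their level over the highest of the AT2-gated, club-gated and other Epcam-positive cells. They are given as a description, since the cells were chosen on cilia genes. *Spata18* led with 254 CPM in WT ciliated cells and 303 CPM in KO ciliated cells, where the other cells reached at most 0.352 and 0.671 CPM. *Dnah3*, an inner arm dynein heavy chain, followed with 549 and 544 CPM. *Sntn*, which encodes a protein of the ciliary tip, stood at 360 and 385 CPM, and *Cdhr3*, a cadherin of ciliated cells, at 642 and 599 CPM. Of the next genes, some belonged to the cilia lists, such as *Spag17* (751 and 831 CPM) and *Hydin* (606 and 584 CPM) of the central pair, and *Cfap44* (623 and 685 CPM), which tethers an inner dynein arm, and others, such as *Elmod1*, *Rgs22* and *Ccdc170*, to none of them. None of these leading genes differed by 2-fold between the genotypes.

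Promoter sequences show how the genes that mark these cells begin. A window from 250 bases before to 50 bases after the start was searched on both strands for GTTGCCA (reverse strand TGGCAAC), a motif of the RFX factors, and for TGTTTAC (reverse strand GTAAACA), a forkhead motif of the kind FOXJ1 reads. The sequences are from RefSeq (GRCm38.p6). Among the rule genes a window was matched for 6 of 9, and *Foxj1*, *Rsph1* and *Cfap54* were not matched. Only *Pifo*, at 1 of its 2 starts, held the RFX letters, and 0 of the 6 held the forkhead letters. It is shown with the first 3 of the leading genes, in order, whose window held the RFX letters, a choice made after the matches were seen. Matched letters are in capitals.
*Pifo* (chr3:106001448-106001747, minus strand, RFX letters 13 bases upstream of the start): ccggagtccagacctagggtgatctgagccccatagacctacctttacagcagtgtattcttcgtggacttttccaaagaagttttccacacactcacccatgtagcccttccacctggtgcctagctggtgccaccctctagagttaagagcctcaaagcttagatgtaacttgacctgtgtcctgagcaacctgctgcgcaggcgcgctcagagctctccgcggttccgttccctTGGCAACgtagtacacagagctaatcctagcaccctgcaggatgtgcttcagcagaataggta
*Sntn* (chr14:13670626-13670925, plus strand, RFX letters 66 and forkhead letters 236 bases upstream): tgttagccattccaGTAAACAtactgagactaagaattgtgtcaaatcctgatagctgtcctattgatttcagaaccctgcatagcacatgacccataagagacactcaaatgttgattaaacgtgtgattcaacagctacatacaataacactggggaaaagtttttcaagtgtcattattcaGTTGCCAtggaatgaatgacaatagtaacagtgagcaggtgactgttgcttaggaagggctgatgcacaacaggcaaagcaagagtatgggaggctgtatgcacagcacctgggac
*Cdhr3* (chr12:33092826-33093125, minus strand, RFX letters 7 bases upstream): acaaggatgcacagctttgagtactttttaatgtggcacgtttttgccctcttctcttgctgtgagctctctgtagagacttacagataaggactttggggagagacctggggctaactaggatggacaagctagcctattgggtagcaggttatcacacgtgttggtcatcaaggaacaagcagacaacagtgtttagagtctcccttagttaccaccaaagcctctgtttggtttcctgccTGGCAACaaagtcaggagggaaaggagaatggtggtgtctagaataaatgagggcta
*Cfap44* (chr16:44394549-44394848, plus strand, RFX letters 130 and 20 bases upstream): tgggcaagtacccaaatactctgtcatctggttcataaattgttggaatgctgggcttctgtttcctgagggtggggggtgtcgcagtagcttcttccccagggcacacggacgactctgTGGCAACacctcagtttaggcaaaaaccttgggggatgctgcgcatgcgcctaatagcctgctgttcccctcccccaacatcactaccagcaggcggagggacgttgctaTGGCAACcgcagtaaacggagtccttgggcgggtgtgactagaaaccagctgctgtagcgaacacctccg

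The RFX letters were found in windows of 27 of 114 matched axoneme genes (23.7%) and of 13 of 42 matched genes among the 50 leading ones (31.0%), against 1358 of 27025 genes with a window (5.03%). The forkhead letters were found for 4 axoneme genes (3.51%) and 5 leading genes (11.9%), against 1095 of all genes (4.05%). Of the RFX matches in axoneme genes, 21 of 32 (65.6%) began within 100 bases upstream of the start, against 8 of 15 (53.3%) in the leading genes and 663 of 1514 (43.8%) over all genes. A match is only a run of letters in these windows, and its use by a factor was not measured.

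Between genotypes, ciliated cells were alike at most genes. Of 4089 genes with a mean of at least 50 CPM over both libraries, called measured here, 11 were at least 2-fold higher in KO (0.269%) and 15 were at least 2-fold lower (0.367%), with a median log2 ratio of -0.05. The lower count was 102 with the cells that held *Ptprc*, *Pecam1* or *Muc5b* kept in, and 3 with the top cell of each gene left out. For the count without top cells the minimum of 50 CPM was applied again, which left 3925 genes. *Spp1*, *Lgals1* and *Msrb1* still had log2 ratios of -3.66, -1.47 and -1.13 there, but fell below that minimum. Of the 1046 that were also at least 2-fold above AT2-gated, club-gated and other Epcam-positive cells in both libraries, 0 were 2-fold higher (0%) and 2 were 2-fold lower (0.191%). The 2 were *AW112010* and *Cmpk2*, both known as interferon-induced transcripts, and for *Cmpk2* 1 WT cell held 52.1% of the UMIs and the log2 ratio was -0.11 without the top cell of each library. Among genes enriched in ciliated cells, the highest ratios were those of *Cdkn1c*, a cell cycle inhibitor (101 CPM in WT against 187 CPM in KO, log2 ratio 0.89), and *Tekt1*, a tektin of the doublet microtubules (227 CPM in WT, 193 to 265, and 395 CPM in KO, 381 to 409, log2 ratio 0.80). With another scaling, the TMM factors of edgeR, the median of all genes moved to 0.07, and the small negative medians of the multiciliogenesis regulators and the BBSome given below turned positive, to 0.08 and 0.08. Over cells with *Xist* only 43 genes were 2-fold higher and 46 lower, and over cells with a Y-linked transcript only 31 were higher and 82 lower, from far fewer cells.

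**Figure D2:**
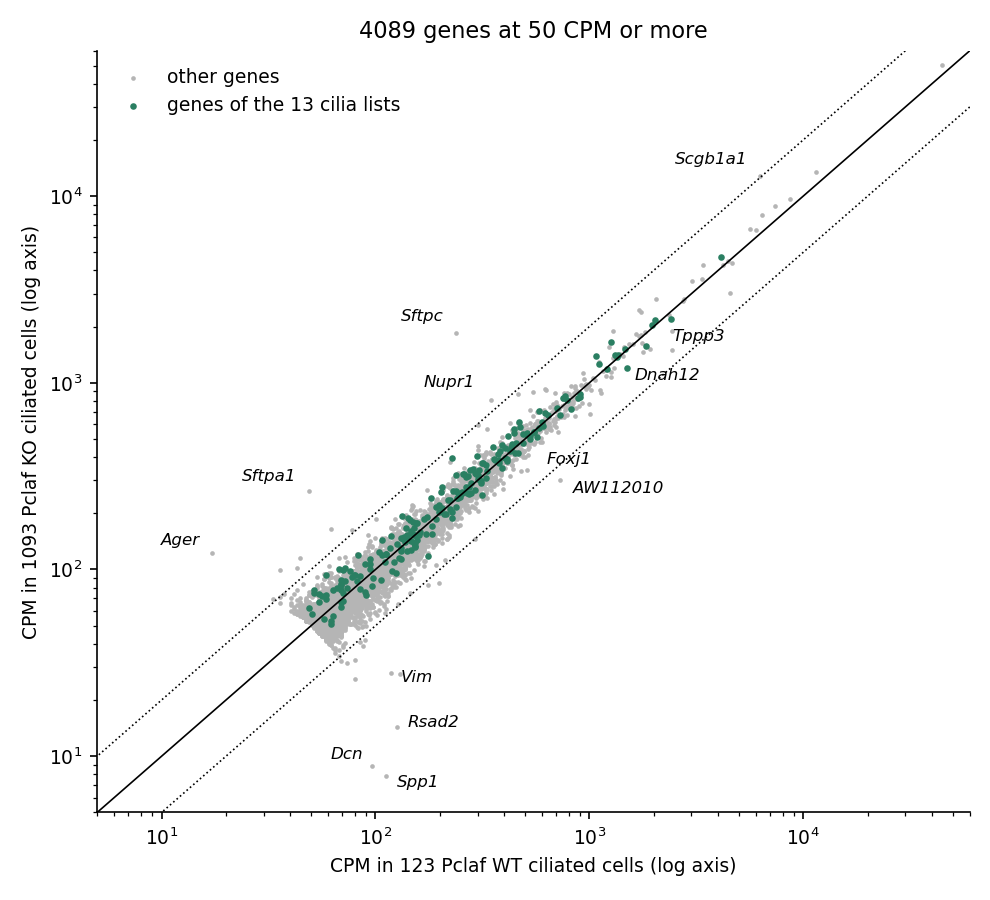
Level of 4089 measured genes in WT ciliated cells (x axis, CPM, log scale) and KO ciliated cells (y axis, CPM, log scale), with genes of the 13 cilia lists in green. The solid line marks equal levels and the dotted lines 2-fold, and the cilia genes lie between the dotted lines while *Sftpc*, *Ager*, *Spp1*, *Dcn* and *Rsad2* lie farthest outside.

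Of the 215 different measured genes in the 13 cilia lists, 0 passed 2-fold in either direction, beside 0.269% higher and 0.367% lower over all measured genes, so a count of 0 is near that background. The lists hold the 9 rule genes, on which the cells were chosen, and the 206 others are also given apart where this bears on a list. Multiciliogenesis regulators had 12 of 20 members measured and a median log2 ratio of -0.05, with summed levels of 2363 CPM in WT against 2357 CPM in KO. *Rfx3*, a partner of FOXJ1 at cilia genes, stood at 488 and 479 CPM, *Myb*, an early factor of the fate, at 227 and 203 CPM, and *Trp73*, another regulator of multiciliation, at 106 and 88.0 CPM. *Foxa2*, a forkhead factor of airway epithelium, had the lowest ratio of the list with 175 CPM in WT against 118 CPM in KO (log2 ratio -0.57), and *Cby1*, a basal body protein, the highest with 67.5 and 101 CPM (0.58).

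Genes of centriole amplification ranged widely in level. Of 16 in the list 5 were measured, with a median log2 ratio of 0.17 and summed levels over the list of 817 and 943 CPM. The most abundant was *Pcm1*, a centriolar satellite protein, at 293 and 330.3 CPM, and *Ccdc78*, a deuterosome protein, stood at 155 and 177 CPM. *Deup1*, a scaffold of the deuterosome, stood at 66.1 CPM in WT against 80.0 CPM in KO. *Ccno* was at 7.18 and 22.3 CPM, *Cdc20b* at 12.9 and 52.2 CPM and *Mcidas* at 8.62 and 14.8 CPM, all known from cells that are still building centrioles. At 2000 UMIs, 1.80% of WT (0.219 to 6.36) and 2.48% of KO ciliated cells (1.62 to 3.61) held at least 2 of these 4 transcripts, and in AT2-gated cells the shares were 0% and 0.015%. The difference between the genotypes was within the counting interval of the WT share.

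Sums and medians of the motors and their regulators are given first with the rule genes. Outer dynein arm genes had a median log2 ratio of 0.05 over 15 measured genes and summed to 7280 CPM in WT against 7339 CPM in KO. For inner dynein arm genes the median was 0.03 over 14 genes, with 6914 and 6984 CPM. Central pair genes had a median of 0.04 over 16 genes, with 5574 and 5727 CPM. These sums cover all members of a list. Of the UMIs of measured members in WT, rule genes made up 39.7% for the outer arm, 19.7% for the inner arm and 14.2% for the central pair. Over the measured members that are not rule genes the sums were 4375 and 4428 CPM for the outer arm, 5554 and 5568 CPM for the inner arm and 4747 and 4872 CPM for the central pair, with medians of 0.05, 0.02 and 0.03. The nexin-dynein regulatory complex had a median of 0.14 over 15 genes, with *Ccdc113* at 299 and 407 CPM (log2 ratio 0.45), and radial spoke genes had a median of 0.12 over 17 genes, or 0.06 over the 16 without *Rsph1*.

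The tubulins, tektins and inner proteins of the doublets had a median of 0.20 over 28 measured genes and 0.15 over the 26 that are not rule genes, with 11193 CPM in WT against 12655 CPM in KO. *Tubb4b*, the tubulin isotype of ciliary shafts, was at 1266 CPM in WT (1184 to 1353) and 1663 CPM in KO (1635 to 1691). *Tppp3*, a tubulin-binding protein, was at 2030 and 2157 CPM. *Tekt1*, given above, had the highest ratio of the list. Intraflagellar transport had a median of 0.07 over 33 measured genes (6342 and 6754 CPM), dynein arm assembly factors 0.14 over 12, basal body genes 0.10 over 15, and the BBSome, a cargo adaptor of transport, -0.04 over 6.

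Ciliated cell genes outside the axoneme had a median of 0.07 over 29 measured genes and summed to 23334 CPM in WT against 24183 CPM in KO. *Wfdc2*, a secreted protease inhibitor, was at 4134 and 4691 CPM. *Sec14l3*, a lipid-binding protein, was at 2402 and 2186 CPM. *Aldh1a1*, a retinaldehyde dehydrogenase, was at 1848 CPM in WT (1748 to 1952) and 1577 CPM in KO (1550 to 1605).

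**Figure D3:**
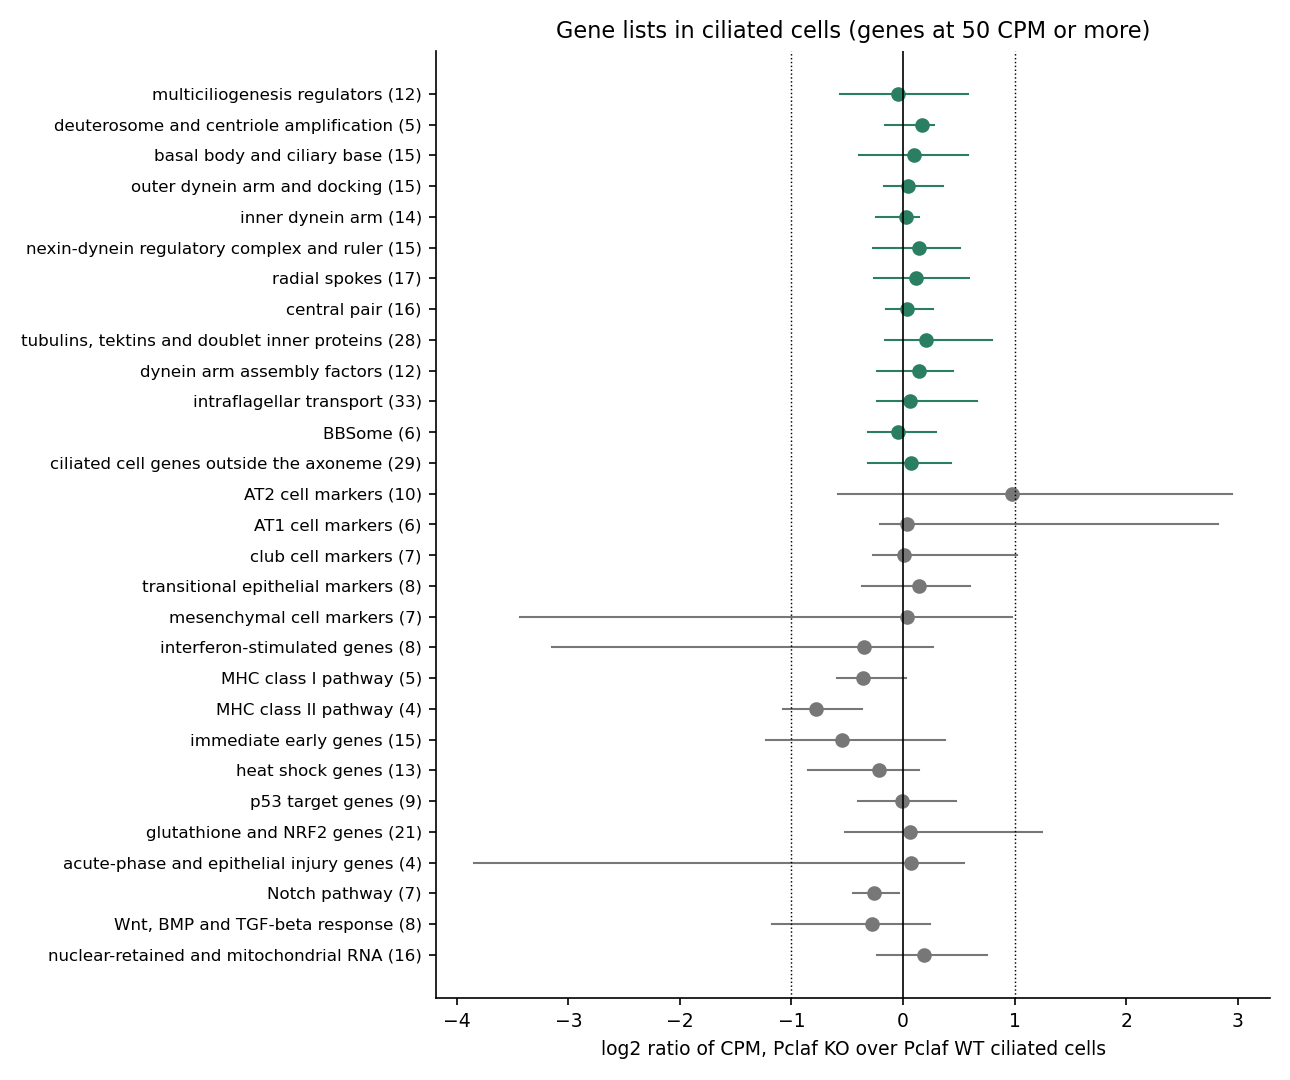
Median (point) and range (line) of the log2 ratios between KO and WT ciliated cells for each gene list with at least 4 measured genes, the number measured in parentheses. Cilia lists (green) lie between the dotted 2-fold lines with medians from -0.05 to 0.20, while AT2 markers and MHC class II genes have the medians farthest from 0, at 0.98 and -0.78.

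Of the 11 genes that were 2-fold higher in KO ciliated cells, 7 were markers of other lung epithelial cells. *Sftpc*, the surfactant protein of AT2 cells, was at 238 CPM in WT (204 to 278) and 1839 CPM in KO (1810 to 1869), a log2 ratio of 2.95. The rule limited *Sftpc* to under 5% of UMIs, and 3 WT and 89 KO cells with at least 4 rule genes were at or over that. The level and ratio of *Sftpc* thus describe the cells chosen. A single WT cell held 91 of its 166 UMIs (54.8%), and without the top cell of each library the ratio was 4.00. *Ager*, an AT1 cell membrane protein, was at 17.2 and 122 CPM (2.83), and *Sftpa1*, a surfactant protein, at 48.8 and 264 CPM (2.43). Of the 18 AT2 markers 10 were measured and 5 were 2-fold higher (*Sftpc*, *Sftpa1*, *Scd1*, *Sftpd* and *Cxcl15*), beside 0.269% of all measured genes, with a summed level of 1880 CPM in WT against 4024 CPM in KO and a median of 0.98. The median AT2 marker in ciliated cells stood at 0.966% of its level in AT2-gated cells in WT and at 1.83% in KO, and *Sftpc* at 0.172% and 1.13%. The value of 0.172% includes the WT cell with most of the *Sftpc* UMIs. Summed over the measured AT2 markers, the log2 ratio was 2.00 in cells with *Xist* only and 0.56 in cells with a Y-linked transcript only. Without the top cells these ratios were 2.00 and 0.73. *Sftpc* gave 3.97 and 2.23 in these sets, and 4.29 and 3.94 without the top cells.

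*Sftpc* was also found in cells of other types. At 2000 UMIs it was detected in 18.9% of WT and 87.1% of KO ciliated cells, against 18.8% and 91.2% of club-gated cells, which also should lack it, and 36.6% and 89.9% of other Epcam-positive cells. By level, club-gated cells held 1036 and 3505 CPM and other Epcam-positive cells 4209 and 6961 CPM, all above the ciliated cells of the same library, and the log2 ratios there were 1.76 and 0.73. The shares in ciliated cells were close to or below those in club-gated cells. Whether ciliated cells express *Sftpc* was not tested, nor was the source of these transcripts. *Scgb1a1*, the club cell secretory protein, was at 6295 CPM in WT (6110 to 6484) and 12744 CPM in KO (12667 to 12822), and was detected in 74.8% and 94.3% of ciliated cells against 33.7% and 87.5% of AT2-gated cells. The WT value of *Scgb1a1* rested on few cells. A single WT cell held 2636 of its 4384 UMIs (60.1%), and without the top cell of each library the log2 ratio was 2.20 in place of 1.02. With the ciliated cells that held *Ptprc*, *Pecam1* or *Muc5b* kept in, the ratios of *Scgb1a1* and *Sftpa1* turned to -0.51 and -0.31. The defining genes of goblet and basal cells were low, with 45.9 and 272 CPM summed over the 13 goblet genes and 2.87 and 10.7 CPM over the 7 basal genes, and 0 measured members in each. Of the goblet genes 8 had no UMI in WT and 1 in KO.

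Among the genes above 2-fold that belonged to no list of epithelial markers were *Nupr1* and *Gstp1*. *Nupr1*, a stress-response regulator, was at 348 CPM in WT (305 to 394) and 811 CPM in KO (791 to 830), and *Gstp1*, a glutathione transferase, at 43.1 CPM (29.1 to 61.5) and 102 CPM (95.4 to 109). *Nupr1* was higher in both sets of ciliated cells split by sex-linked transcripts, by 0.93 in cells with *Xist* only and by 1.11 in cells with a Y-linked transcript only. For *Gstp1* the log2 ratios in these sets were 0.91 and 1.57. *Gstp1* was also higher in KO in AT2-gated, club-gated and other Epcam-positive cells, with ratios of 1.16, 1.09 and 1.03, and *Nupr1* had 0.35, 0.84 and 0.07 there, so that of *Gstp1* was not particular to ciliated cells.

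**Figure D4:**
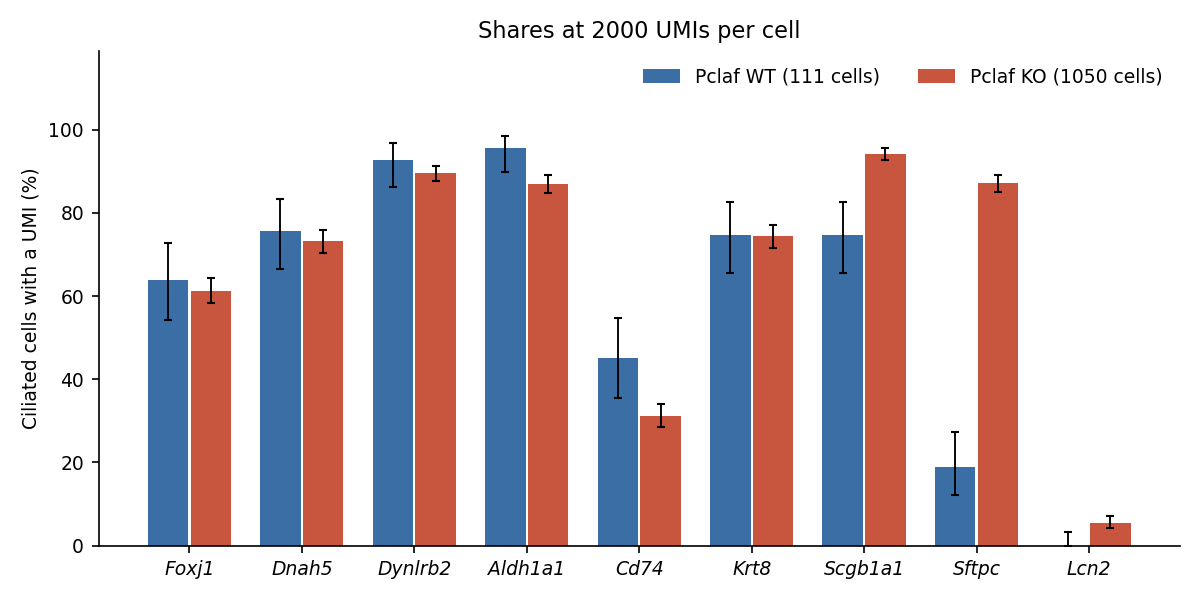
Percent of ciliated cells (y axis) with at least 1 UMI of the named gene (x axis) after thinning to 2000 UMIs per cell, in WT (111 cells) and KO (1050 cells), with exact binomial 95% intervals that cover counting error only. *Foxj1* and *Dnah5* are close in both libraries, while *Sftpc* is in 18.9% of WT and 87.1% of KO ciliated cells.

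Several genes that were 2-fold lower in KO rested on 1 WT cell. *Dcn*, a fibroblast proteoglycan, was at 96.2 CPM in WT (74.6 to 122) and 8.90 CPM in KO (6.98 to 11.2), but 65 of its 67 WT UMIs (97.0%) came from 1 cell, and without the top cells the log2 ratio turned from -3.43 to 1.20. *Rsad2*, an interferon-induced enzyme, was at 126 and 14.3 CPM, with 77 of 88 WT UMIs (87.5%) in 1 cell, and its ratio was -0.48 without the top cells. Others kept their direction over the pooled cells. *Spp1*, the secreted protein osteopontin, was at 112 CPM in WT (88.5 to 140) and 7.80 CPM in KO (6.01 to 9.96), a log2 ratio of -3.84 and of -3.66 without the top cells. *Vim*, the intermediate filament protein of non-epithelial cells, was at 118 CPM (93.6 to 146) and 27.8 CPM (24.3 to 31.6), a ratio of -2.08 and of -1.75 without the top cells. *AW112010* was at 731 CPM in WT (669 to 797) and 301 CPM in KO (289 to 313), a ratio of -1.28 and of -1.01 without them. *Spp1*, *Vim* and *AW112010* were also lower in both sets of cells split by sex-linked transcripts, with ratios in cells with *Xist* only of -2.27, -1.63 and -1.29. The last rested on 1 WT cell with 57.6% of the UMIs and was -0.25 without the top cells, and for *Vim* the ratio in cells with a Y-linked transcript only went from -1.73 to -0.65. *Spp1* was lower in AT2-gated, club-gated and other Epcam-positive cells as well, with ratios of -2.21, -2.64 and -3.50, and so was *Vim*, with -1.33, -1.44 and -1.62.

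RNA of immune and endothelial cells was higher in the WT ciliated cells. The immune list summed to 587 CPM in WT against 67.5 CPM in KO and the endothelial list to 188 and 21.7 CPM, with 0 measured members in both lists. Other cells of the libraries showed the same order, with immune sums of 1581 and 1298 CPM in AT2-gated, 652 and 73.7 CPM in club-gated and 2411 and 129 CPM in other Epcam-positive cells, and endothelial sums of 236 and 36.1, 248 and 63.7, and 336 and 40.6 CPM. The most abundant immune gene was *Ctss* in WT and *Lyz1* in KO, and the most abundant endothelial gene *Calcrl* in WT and *Tmem100* in KO. *Lyz1* made up 17.6 CPM of the immune sum of KO ciliated cells. Over all kept KO cells *Lyz1* stood at 668 CPM, against 55.9 CPM for *Ctss*. Whether *Lyz1* follows immune cells in that library was not tested. Of the 20 immune markers 0 were without a UMI in WT and 3 in KO, of the 12 endothelial markers 0 in both, and cells with *Ptprc* or *Pecam1* had been left out by the rule. Mesenchymal genes were level over the pooled cells, with 2349 and 2359 CPM, and so were red blood cell genes, with 57.4 and 58.9 CPM. *Gsn* made up 1209 and 1206 CPM of the mesenchymal sums. Over the measured mesenchymal genes the log2 ratio was -0.59 in cells with *Xist* only and 1.08 in cells with a Y-linked transcript only. The part of these transcripts in *Spp1*, *Vim* and *Lgals1* (131 and 27.6 CPM) was not tested.

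Immune-response and early-response genes stood lower in KO ciliated cells when all cells were pooled. MHC class II genes, which present antigen, had a median log2 ratio of -0.78 over 4 measured members, of which 1 was 2-fold lower, beside 0.367% of all measured genes for this and the lower counts that follow. *Cd74*, the invariant chain, was at 859 CPM in WT (791 to 930) and 665 CPM in KO (648 to 683), *H2-Aa* at 292 and 146 CPM, and *H2-Eb1* at 175 and 82.9 CPM. MHC class I genes had a median of -0.36 over 5 members, with *B2m*, the shared light chain, at 478 and 335 CPM. Interferon-stimulated genes had a median of -0.35 over 8 members, with 1 lower, and immediate early genes, which respond to stimulation and to tissue handling, had a median of -0.55 over 15, with *Zfp36* (198 and 84.4 CPM) and *Dusp1* (89.0 and 42.0 CPM) 2-fold lower. *Fos* stood at 396 CPM in WT (351 to 446) and 271 CPM in KO (260 to 283). Other cells of the same libraries differed between genotypes too. The MHC class II median was -0.05 in AT2-gated, -2.96 in club-gated and -2.36 in other Epcam-positive cells, the class I median -0.29, -0.06 and -0.04, the interferon median -0.30, -1.13 and -0.07, and the immediate early median -0.45, -0.06 and 0.36.

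The direction of some of these lists depended on which cells were compared. Over cells with *Xist* only, summed immediate early genes were at 1303 CPM in WT (39 cells) and 1751 CPM in KO (554 cells), a log2 ratio of 0.43, whereas over cells with a Y-linked transcript only they were at 3579 CPM (44 cells) and 2535 CPM (268 cells), a ratio of -0.50. Summed MHC class II genes were at 963 and 1345 CPM in the first set (0.48) and at 2090 and 804 CPM in the second (-1.38). Summed interferon-stimulated genes gave 0.13 (-0.11 to 0.39) and -1.17 (-1.36 to -0.99), the second of which was -0.14 without the top cells, since 1 WT cell held 54.5% of its UMIs. MHC class I genes gave -0.08 (-0.20 to 0.05) and -0.89 (-1.01 to -0.78). Among single genes, *Cd74* was at 0.69 (0.43 to 0.96) over the cells with *Xist* only and at -1.20 over those with a Y-linked transcript only. *H2-Eb1*, *Zfp36* and *Fos* were at 0.59, 0.37 and 0.19 over the first set, with intervals that included 0. *Scgb1a1* was at 941 and 9117 CPM in the first set and at 12916 and 11307 CPM in the second, but 1 WT cell of the second set held 71.3% of its UMIs, and without the top cell of each library that ratio turned from -0.19 to 1.12. The WT cells with a Y-linked transcript held the highest level of these lists, for the interferon-stimulated list through that 1 cell, and the pooled ratios moved with the make-up of the libraries. Sex, animal and sort cannot be told apart in these cells, since the labels do not tie cells to mice. Outer dynein arm genes, which include 3 rule genes, had ratios of -0.09 and 0.11, and of -0.12 and 0.11 without those 3.

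**Figure D5:**
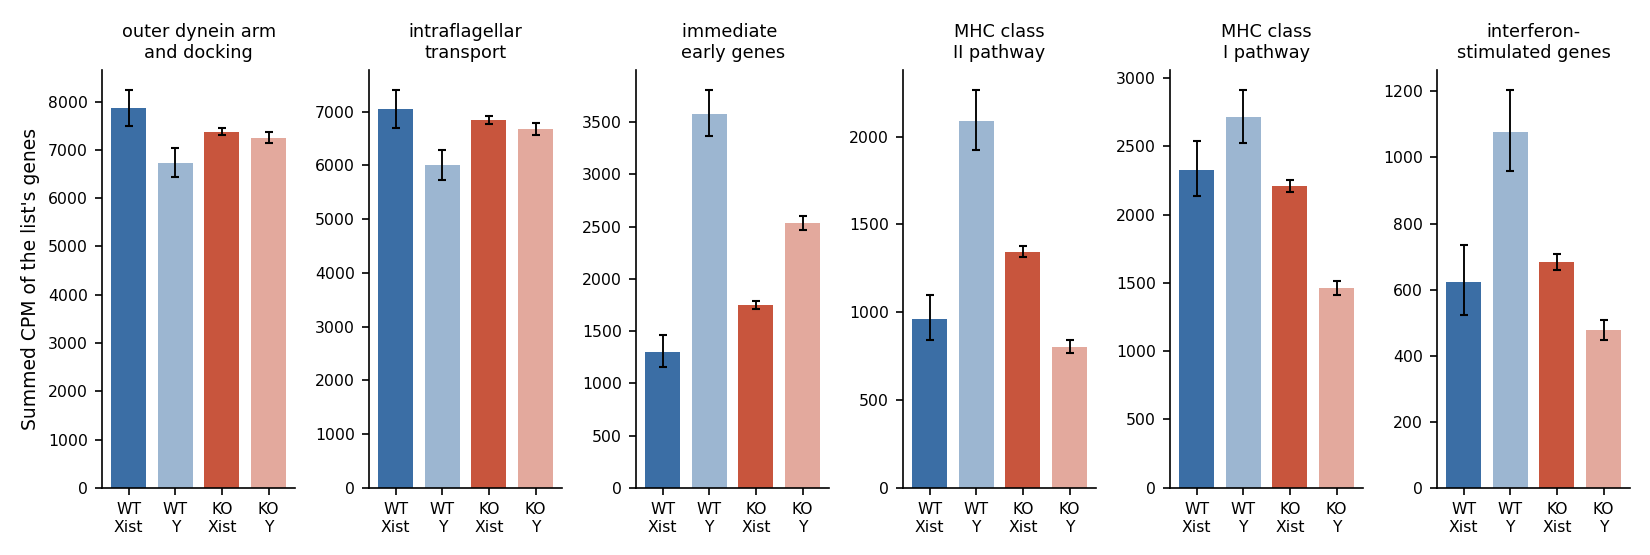
Summed CPM of each list's measured genes (y axis, starting at 0 in each panel) in WT and KO ciliated cells with *Xist* only or with a Y-linked transcript only, with exact Poisson 95% intervals that cover counting error only. Immediate early genes run from 1303 to 3579 CPM over the 4 sets of cells, with WT cells at both ends, while outer dynein arm genes run from 6736 to 7865 CPM.

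Few ciliated cells carried a strong interferon response in either genotype. At 2000 UMIs, 12 of 111 WT cells (10.8%, 5.71 to 18.1) and 56 of 1050 KO cells (5.33%, 4.05 to 6.87) held at least 5 UMIs summed over the interferon-stimulated list, and the median cell held 1 UMI in both. A single WT cell held 30.9% of these UMIs in its library.

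Signalling and stress lists had smaller medians. Notch pathway genes had a median log2 ratio of -0.26 over 7 measured members, with *Jag1*, a Notch ligand, at 293 CPM in WT (254 to 336) and 214 CPM in KO (204 to 225), and the same list was at -0.36 in AT2-gated cells. Heat shock genes had a median of -0.21 over 13 and summed to 8732 and 8706 CPM. Glutathione and NRF2 genes had a median of 0.06 over 21, and p53 target genes -0.01 over 9. Of the glutathione and NRF2 genes only *Gstp1* passed 2-fold, as higher in KO, beside 0.269% of all measured genes. *Krt8*, a keratin on the transitional epithelial list, was at 818 and 964 CPM and was detected in 74.8% and 74.4% of cells at 2000 UMIs. Its shares were 33.9% and 29.5% in AT2-gated cells and 21.7% and 22.6% in club-gated cells. Whether ciliated cells were in a transitional state was not tested. *Lcn2*, an acute-phase protein, was detected in 0 of 111 WT cells and 5.52% of KO cells at that depth, against 71.3% and 71.7% of AT2-gated cells. At full depth it was in 3 of 123 WT ciliated cells (2.44%, 0.506 to 6.96) and 13.9% of KO ciliated cells.

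Among ciliated cells of 1 library, the gene with the most uneven counts was *Scgb1a1* in both. Its variance over its mean at 2000 UMIs was 252 in WT and 396 in KO, and the top 10% of cells held 79.6% and 81.1% of its UMIs. Of the 20 most uneven genes of each library, 12 were in both, among them the secretory genes *Scgb1a1*, *Scgb3a2* and *Retnla*, the matrix gene *Mgp* and the interferon-induced *Isg15*. None of the 9 rule genes was among them.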

How the data were processed

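Cells were sorted as CD31-/CD45-/Epcam+ and run on the 10x Chromium 3' v3.1 assay, 1 library per genotype. The authors deposited raw UMI count matrices of barcodes by 31053 genes. The submitters' processing notes name Cell Ranger 3.1.0, STAR and GRCm38 (mm10), whereas the matrix headers name 5.0.0. Counts were used as deposited, with 0 unmapped columns. UMIs were summed per library over the cells of each set and expressed as CPM. Log2 ratios of KO over WT have exact conditional Poisson intervals, shares have Clopper-Pearson intervals, and a pseudocount of 0.5 UMIs was used only where a sum was 0. Genes with a mean of at least 50 CPM were compared, and 2-fold was the call. No test between genotypes was made. Counts carry no strand check, so overlapping genes and close copies may share UMIs. Shares were taken at 2000 UMIs per cell.

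The ciliated cells and the 37 gene lists were chosen with earlier results of these data known. Named genes were *Pclaf*, the 9 rule genes, the 20 leading ciliated genes, the 10 highest and 10 lowest ratios among all measured and among ciliated-enriched genes, in each list the 2 most abundant and the 2 with the largest ratios, and the 10 most abundant genes. Other genes named were chosen after their values were seen, except those that the design named for shares and markers. Doublets called by Scrublet (scanpy 1.11.5) were kept in and left out as an alternative. Scaling by TMM used edgeR 4.0.16. Scripts were tested on simulated data. 1 gene past 2-fold is not reported here.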

Additional observations from a re-analysis of the deposited data

Results flagged for a closer look

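The ratio of KO over WT pointed in opposite directions in ciliated cells with *Xist* only and in those with a Y-linked transcript only for 17 of the 29 lists compared, and for 9 of these both counting intervals left out 0. The difference itself was not tested, the sets of cells were defined from the data, and there is 1 library per genotype.

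The log2 ratios of these 9 lists are of summed CPM, first in the cells with *Xist* only and then in those with a Y-linked transcript only. For genes of the motors the ratios were small, at -0.092 and 0.11 for the outer dynein arm and 0.073 and -0.082 for the inner dynein arm. Without the rule gene *Dnah12* the inner arm ratio in cells with *Xist* only was 0.05 (-0.03 to 0.13), an interval that includes 0. Immune and early-response genes stood farther apart, at 0.48 and -1.38 for MHC class II and 0.43 and -0.50 for immediate early genes. Acute-phase and epithelial injury genes had 0.41 and -0.31, and heat shock genes -0.31 and 0.13.

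Among markers of other cells, club cell genes had 1.04 and -0.13, of which the second was 0.55 without the top cell of each library, since 1 WT cell held 49.3% of its UMIs. Mesenchymal genes had -0.59 and 1.08, and AT1 genes -0.17 and 0.29. Without the top cells the AT1 ratio in cells with *Xist* only was -0.07 (-0.24 to 0.10) and the inner dynein arm ratio in cells with a Y-linked transcript only -0.03 (-0.10 to 0.04), and 6 other lists kept both directions.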

How the results depend on the processing

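Leaving out a replicate was not possible with 1 library per genotype, and no interval covers the spread between mice. No paired analysis was possible because each genotype has 1 library. WT values rest on 123 cells and 696441 UMIs, KO values on 1093 cells and 8201011 UMIs, so low genes are limited by the WT depth.
The number of ciliated cells was 51 in WT and 279 in KO with the limits of 200 and 5000 set on UMIs in place of genes, and 202 in WT with cells of *Ptprc*, *Pecam1* or *Muc5b* kept (all alternatives with those cells kept, with top cells left out or split by sex-linked transcripts were chosen after seeing the data). The share of Epcam-positive cells was 6.98% in WT and 11.2% in KO with those limits on UMIs, 6.70% and 11.4% with cells thinned to 1000 UMIs, 0.407% and 6.99% of all kept cells, 8.01% in WT with those marker cells kept, and in KO 13.4% without the *Sftpc* limit and 13.2% without the upper gene limit.
The counts of genes 2-fold higher and lower were 54 and 131 with those limits on UMIs, 43 and 46 over cells with *Xist* only, 31 and 82 over cells with a Y-linked transcript only, 34 and 51 at 2000 UMIs per cell, 32 and 74 from 20 CPM, 6 and 3 from 100 CPM, 54 and 101 at 1.5-fold, and 3 and 5 at 4-fold. Higher genes were 22 without the *Sftpc* limit, 18 without the upper gene limit and 17 with TMM. Lower genes were 102 with marker cells kept and 3 without the top cells, where the minimum mean CPM was applied again. *Spp1*, *Lgals1* and *Msrb1* fell below that minimum there, with log2 ratios still at -3.66, -1.47 and -1.13.
Among genes past 2-fold, ratios reversed for *Dcn* (1.54 over *Xist* only, 0.31 over Y-linked only, 1.20 without top cells), *Rsad2* (0.23 without doublets, 0.79 over *Xist* only), *Cmpk2* (0.21 and 0.10 in the same order), *Zfp36* (0.37) and *H2-Eb1* (0.59) over *Xist* only, *Ager* (-0.47) and *Cyr61* (1.00) with those limits on UMIs, *Sftpa1* (-0.31), *Cxcl15* (-0.73) and *Scgb1a1* (-0.51) with marker cells kept, and *Scgb1a1* (-0.19) over Y-linked only, which was 1.12 without the top cell of each library. The cause was not tested. Under every alternative run, from 95.2% to 99.6% of the measured genes stayed within 2-fold. Of the ratios of named genes under all alternatives, 2804 in all, 274 differed in sign from the value given, of which 15 were of genes past 2-fold. *Cd74* (0.69) and *Fos* (0.19) over *Xist* only are among the rest.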

Other observations

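The remaining lists give values with no 2-fold member except those named. All such members in this section stand beside 0.269% higher and 0.367% lower over all measured genes. Of 13 AT1 markers 6 were measured, with *Ager* 2-fold higher, a median log2 ratio of 0.03 and summed levels of 1399 CPM in WT and 1573 CPM in KO. Club cell markers had 7 measured, with *Scgb1a1* 2-fold higher, a median of 0.01 and 13318 and 20079 CPM. Transitional epithelial genes had 8 measured, a median of 0.14 and 3035 and 3405 CPM, and the mesenchymal list had 7 measured, with *Dcn* 2-fold lower and a median of 0.04. The rare airway epithelial list had 0 measured and summed to 5.74 and 13.7 CPM. Cell cycle genes had 2 measured, with *Hmgb2* the most abundant, and summed to 250 and 314 CPM.

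Acute-phase and epithelial injury genes had 4 measured, with *Spp1* 2-fold lower and a median of 0.08. *Hp*, the haemoglobin scavenger haptoglobin, was at 625 CPM in WT (567 to 686) and 911 CPM in KO (890 to 931), and *Cxcl17*, a mucosal chemokine, at 701 and 645 CPM. Wnt, BMP and TGF-beta response genes had 8 measured, with *Cyr61* 2-fold lower and a median of -0.28. Nuclear-retained and mitochondrial RNAs had a median of 0.19 over 16 and summed to 58690 and 67713 CPM. Over the measured ones the log2 ratio of the sum was 0.48 in cells with *Xist* only. It was 0.07 in cells with a Y-linked transcript only. Sex-linked transcripts summed to 366 and 465 CPM, of which *Xist* was measured.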
